A study of Mus musculus with 6 samples.

Results

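A group of 10 genes of the extracellular matrix is described here across cultures of embryonic mouse stomach, of intestine, and of intestine made to express the transcription factor BARX1. They are the small leucine-rich proteoglycan genes Bgn, Dcn, Aspn, Ogn, Fmod, Lum and Prelp, the large aggregating proteoglycan genes Acan and Vcan, and Mgp, which encodes matrix Gla protein. All 10 were measured, among 12393 genes in all, by 22 probe sets, and each gene was read from its brightest probe set. Acan, Aspn and Mgp were chosen because their values separated stomach from intestine and because they differed in the cultures with BARX1, so that their levels and differences are given as a description without a test. The other 7 were added as further proteoglycans of the matrix, and for them the tests are given.

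The cells came from C57BL/6 embryos at embryonic day 13.5, were dissociated with collagenase-dispase and then trypsin, and were cultured for 3 days with 20% serum before RNA was hybridised to Affymetrix arrays. There were 6 arrays in 3 groups of 2 biological replicates. The stomach and intestine controls carried Rosa26+/Barx1 or Bapx1+/Cre, the labels calling both wild type without saying which allele a culture had. The intestine called Barx1 intestine here carried both Rosa26+/Barx1 and Bapx1+/Cre, so that the Bapx1 locus, active in mesenchyme of the gut, drove the Cre that switched on Barx1. Where a control carried only Rosa26+/Barx1, effects of BARX1 and of the Bapx1+/Cre allele cannot be told apart. How many embryos entered a culture is not given in the sources used here, and p-values measure the spread between these arrays.

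Small leucine-rich proteoglycans are secreted proteins with a curved core of leucine-rich repeats that binds collagen fibrils and growth factors, and most of them carry chondroitin, dermatan or keratan sulfate chains. Aggrecan and versican bind hyaluronan and fill the space between cells with hydrated gel; aggrecan is best known from cartilage. Matrix Gla protein, which is carboxylated with the help of vitamin K, keeps soft tissue from mineralising and binds bone morphogenetic proteins.

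Levels are log2 values on an RMA scale, and a level of one gene is not set against that of another because probe sets differ in brightness. The lower quartile of the arrays lay between 4.72 and 4.76, and a level at or below it was not shown to be above background. Each pair of values below gives replicate 1 and then replicate 2. Barx1 itself read 9.82 and 9.79 on the stomach arrays, 5.13 and 4.93 on the intestine arrays, and 8.66 and 8.79 on those of Barx1 intestine. Mesenchyme was present in all groups: the 10 measured mesenchyme markers lay above the lower quartile on every array. Their summed linear level ran from 54167 to 56674 for stomach, from 33017 to 33841 for intestine and from 28488 to 31877 for Barx1 intestine, a sum that the brightest genes carry. Their mean log2 level ran from 10.64 to 10.71, from 9.92 to 9.93 and from 9.94 to 10.18, so that Barx1 intestine lay below intestine by the sum and above it by the mean. By limma 7 of 10 were higher in stomach than in intestine and 0 lower, where 8.86% and 8.09% of all genes were called. Col1a2 (log2 difference 1.98) and Pdgfra (1.63) were the largest. The means of Foxf1 (-0.28) and Pdgfrb (-0.01) were lower in stomach, and neither passed. In Barx1 intestine 2 of 10 were higher than in intestine and 0 lower (1.86% and 2.12% of all genes). Against stomach 5 of 10 were lower and 0 higher in Barx1 intestine (2.64% and 2.56% of all genes). The means of 3 of the 10 were higher there than in stomach, Twist1 (0.38), Twist2 (0.14) and Foxf1 (0.39). In RNA from a mixture, fewer cells of a type and less RNA per cell cannot be told apart, and the part of these markers in the results that follow was not tested.

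Mgp had the widest range of the 10 genes. It read 12.24 on both stomach arrays, 7.74 and 8.12 on the intestine arrays, and 9.56 and 10.34 on the arrays of Barx1 intestine. The 3 groups did not overlap, and both Barx1 intestine arrays lay between stomach and intestine. The stomach level stood above the intestine by a log2 difference of 4.31 (SE 0.26), which is 19.8-fold. Barx1 intestine stood above intestine by 2.02 (SE 0.26), or 4.07-fold, and below stomach by 4.88-fold (log2 difference -2.29). With each array left out in turn, the difference between Barx1 intestine and intestine ranged from 1.63 to 2.41.

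**Figure D1:**
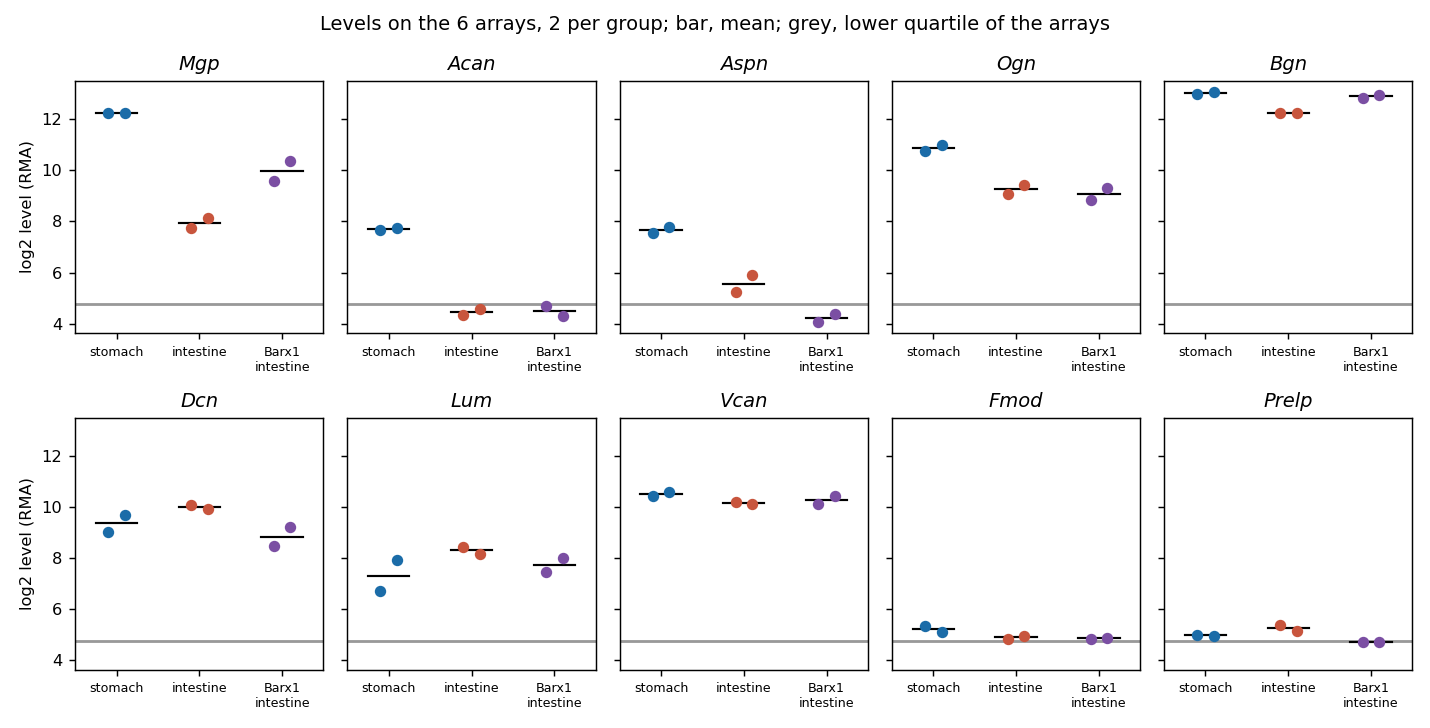
Log2 level (vertical axis, RMA scale) of each of the 10 genes on the 6 arrays, with 1 point per array, a bar at the mean of each group of 2, and a grey band at the lower quartile of the arrays. Mgp is intermediate in Barx1 intestine, Acan lies above the band in stomach alone, and Aspn lies below the band in Barx1 intestine.

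The aggregating proteoglycans differed from each other. Acan read 7.65 and 7.73 on the stomach arrays, and 4.33 and 4.57 on the intestine arrays. On the Barx1 intestine arrays it read 4.69 and 4.31. The 4 arrays of both intestine groups were below their own lower quartiles, so that only the stomach level stood clear of background. The stomach level exceeded that of intestine by 3.24 (SE 0.15, 9.45-fold), and Barx1 intestine minus stomach was -3.19. Both differences rest on a level at background on 1 side, and Acan was chosen on these values, so their true sizes are not known. The difference of 0.05 between Barx1 intestine and intestine (SE 0.15) carries no direction. Without intestine replicate 1 it was -0.071 and without Barx1 intestine replicate 1 it was -0.14.

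Vcan, whose product is a main hyaluronan-binding proteoglycan of embryonic mesenchyme, read 10.43 and 10.57 on the stomach arrays, 10.21 and 10.10 on the intestine arrays, and 10.12 and 10.43 on those of Barx1 intestine. Stomach exceeded intestine by 0.34 (SE 0.12, adjusted p = 0.112 by limma; 95% confidence interval 0.04 to 0.64 before adjustment), and Barx1 intestine and intestine overlapped (difference 0.12, adjusted p = 0.598, interval -0.18 to 0.42). Its other 2 probe sets gave -0.16 and 0.04 for stomach minus intestine, so the direction was not shared by the probe sets. The Barx1 intestine difference was -0.067 for the mean of the 3 probe sets and -0.036 without Barx1 intestine replicate 2.

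Asporin and osteoglycin both read higher in stomach than in intestine, and neither did so in Barx1 intestine. Aspn, a collagen-binding relative of decorin that also binds TGF-beta, read 7.53 and 7.79 on the stomach arrays, 5.23 and 5.90 on the intestine arrays, and 4.08 and 4.39 on those of Barx1 intestine. The groups did not overlap, and the Barx1 intestine arrays were below their lower quartiles. Stomach stood above intestine by 2.09 (SE 0.24). Barx1 intestine stood below intestine by a log2 difference of -1.33 (SE 0.24) and below stomach by -3.42. The last 2 rest on a level at background on 1 side, and Aspn was chosen on these values, so their true sizes are not known. The second probe set of Aspn gave 1.60, -1.81 and -3.42 for the same 3 differences.

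Ogn encodes osteoglycin, also called mimecan, a keratan sulfate proteoglycan of connective tissue. It read 10.76 and 10.97 on the stomach arrays, 9.08 and 9.44 on the intestine arrays, and 8.84 and 9.30 on those of Barx1 intestine. The stomach arrays lay above all 4 others, and the intestine groups overlapped. Ogn was higher in stomach than in intestine by 1.61 (SE 0.19, 3.04-fold, adjusted p = 0.00753 by limma), a call that was lost without stomach replicate 2 (adjusted p = 0.0626). Barx1 intestine differed from intestine by -0.19 (adjusted p = 0.609 by limma; 95% confidence interval -0.67 to 0.29), with a value of 0.040 when Barx1 intestine replicate 1 was left out. It was lower than in stomach by a log2 difference of -1.79 (SE 0.19, adjusted p = 0.0150 by limma), which did not pass without either stomach array (adjusted p = 0.0922 and 0.121) or without Barx1 intestine replicate 1 (adjusted p = 0.0748). The second Ogn probe set gave 1.52, -0.18 and -1.70.

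Aspn and Ogn lie on chromosome 13 with the osteomodulin gene Omd between them and Ecm2 next to Aspn. Omd read 4.80 and 4.38 on the stomach arrays, 3.86 and 4.20 on the intestine arrays, and 4.20 and 4.06 on those of Barx1 intestine, near or below the lower quartile throughout. Its difference between stomach and intestine did not pass (0.56, adjusted p = 0.0838 by limma). Ecm2 was not among the genes read here.

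The RefSeq promoter table (build GRCm38.p6) held 7 of the 10 genes. The 250 bases before the annotated start are shown for Aspn and Ogn, neighbours that both read higher in stomach, and for Acan and Bgn, of which the first lay at background in Barx1 intestine and the second was higher there than in intestine. All 4 windows are on the plus strand, at chr13:49544193-49544442 for Aspn, chr13:49607765-49608014 for Ogn, chr7:79052976-79053225 for Acan and chrX:73483351-73483600 for Bgn. Capitals mark TAAT on either strand, the core letters that many homeodomain proteins bind:
Aspn: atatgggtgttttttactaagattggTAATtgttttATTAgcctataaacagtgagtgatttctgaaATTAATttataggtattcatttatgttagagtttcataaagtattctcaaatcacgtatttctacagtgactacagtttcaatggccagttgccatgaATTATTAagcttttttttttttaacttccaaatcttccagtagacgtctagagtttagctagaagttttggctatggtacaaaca
Ogn: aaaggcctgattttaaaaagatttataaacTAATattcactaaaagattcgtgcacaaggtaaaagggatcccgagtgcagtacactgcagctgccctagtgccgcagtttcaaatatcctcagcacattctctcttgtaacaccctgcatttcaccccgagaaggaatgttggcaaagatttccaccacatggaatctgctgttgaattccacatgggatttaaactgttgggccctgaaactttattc
Acan: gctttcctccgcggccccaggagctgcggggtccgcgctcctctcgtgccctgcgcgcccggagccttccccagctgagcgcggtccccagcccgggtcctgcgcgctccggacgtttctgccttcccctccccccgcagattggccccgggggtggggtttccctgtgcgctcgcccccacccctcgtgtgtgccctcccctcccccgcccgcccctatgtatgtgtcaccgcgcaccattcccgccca
Bgn: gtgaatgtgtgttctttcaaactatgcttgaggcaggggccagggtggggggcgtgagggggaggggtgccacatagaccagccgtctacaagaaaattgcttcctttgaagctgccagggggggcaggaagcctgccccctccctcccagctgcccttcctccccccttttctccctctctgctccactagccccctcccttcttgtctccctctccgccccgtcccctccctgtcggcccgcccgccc

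The Aspn window held 6 matches to TAAT, starting 224, 214, 183, 181, 85 and 82 bases before the start, with overlaps between 183 and 181 and between 85 and 82. The Ogn window held 1, at 220, and the windows of Acan and Bgn held 0. Among all 32851 promoter windows of the same length, 54.9% held at least 1 match and the mean was 1.26. The GC box GGGCGG, searched on both strands, had 3 matches each in the Acan and Bgn windows and 0 in those of Aspn and Ogn, against 32.7% of all windows with at least 1. The TATA box TATAAA, searched on both strands as well, had 2 matches each in the Aspn and Ogn windows and 0 in those of Acan and Bgn, against 12.4% of all windows. These matches began 207 and 178 bases before the start in Aspn and 229 and 227 bases before it in Ogn. Of the Aspn matches, 1 shares its first base with a TAAT match, and the pair in Ogn overlap each other. The E-box CANNTG had 3 matches in the Ogn window and 1 in each of the other windows shown, against 66.2% of all windows. In the windows of Fmod, Vcan and Prelp, which are not shown, TAAT had 1, 1 and 2 matches. In the same order the GC box had 0, 2 and 0 matches, the E-box 1, 1 and 0, and the TATA box 0 in each. These matches describe the sequences and were not measured for binding.

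Biglycan carries chondroitin or dermatan sulfate chains and binds collagen and TGF-beta. Its level was 12.98 and 13.04 on the stomach arrays, 12.26 and 12.24 on the intestine arrays, and 12.83 and 12.95 on those of Barx1 intestine. Both intestine arrays lay below the other 4. Bgn was higher in stomach than in intestine by 0.76 (SE 0.07, 1.69-fold, adjusted p = 0.00426 by limma), and this passed with each array left out. It was also higher in Barx1 intestine than in intestine, by 0.64 (SE 0.07, 1.56-fold, adjusted p = 0.0167 by limma). That call passed without intestine replicate 1 (adjusted p = 0.0380) and was lost in the other 5 fits that left out an array, with adjusted p from 0.0584 to 0.0648. Barx1 intestine and stomach differed by -0.12 (95% confidence interval -0.28 to 0.05, adjusted p = 0.352 by limma). The other 2 Bgn probe sets were higher in both comparisons as well, by 0.74 and 0.88 in stomach and by 0.60 and 0.71 in Barx1 intestine.

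Decorin and lumican, whose genes are neighbours on chromosome 10, had lower means in stomach than in intestine, but their replicates were far apart. Dcn, a regulator of collagen fibril growth, read 9.03 and 9.69 on the stomach arrays, 10.09 and 9.91 on the intestine arrays, and 8.47 and 9.21 on those of Barx1 intestine. The intestine arrays were the highest, and stomach and Barx1 intestine overlapped. The differences from intestine were -0.64 for stomach (SE 0.31, adjusted p = 0.208 by limma) and -1.16 for Barx1 intestine (SE 0.31, adjusted p = 0.0994 by limma). The first was -0.31 without stomach replicate 1 and -0.97 without stomach replicate 2, and the second ran from -1.53 to -0.79 with 1 array left out.

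Lum, a keratan sulfate proteoglycan that spaces collagen fibrils, read 6.71 and 7.92 on the stomach arrays, 8.43 and 8.17 on the intestine arrays, and 7.45 and 7.996 on those of Barx1 intestine. Again both intestine arrays were the highest. The difference was -0.99 for stomach (SE 0.41, adjusted p = 0.157 by limma) and -0.58 for Barx1 intestine (SE 0.41, adjusted p = 0.452 by limma). The first was -0.38 without stomach replicate 1 and -1.59 without stomach replicate 2, and the second was -0.31 without Barx1 intestine replicate 1 and -0.85 without its replicate 2. The difference of Barx1 intestine minus stomach was 0.41 (adjusted p = 0.589 by limma), and -0.19 once stomach replicate 1 was left out. Kera and Epyc, which follow Lum on the chromosome, were below the lower quartile on every array; Kera was called higher in stomach (0.365, adjusted p = 0.0229 by limma) from levels of 3.02 to 3.48.

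**Figure D2:**
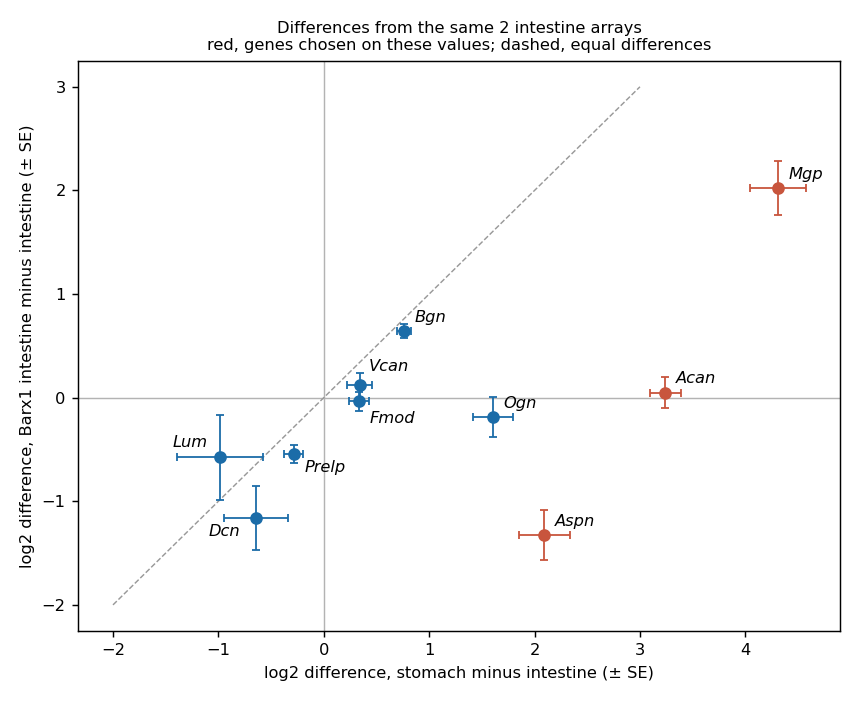
Log2 difference of stomach minus intestine (horizontal axis) against Barx1 intestine minus intestine (vertical axis) for the 10 genes, with SE bars from the limma fit; both axes use the same 2 intestine arrays. Bgn (0.76 and 0.64) lies near the dashed line of equal differences, while Ogn and Acan lie near 0 on the vertical axis and Aspn lies below it.

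Fmod and Prelp encode fibromodulin and prolargin, which bind collagen, and both stayed close to background. Fmod read 5.34 and 5.11 on the stomach arrays, 4.83 and 4.96 on the intestine arrays, and 4.85 and 4.87 on those of Barx1 intestine. None of the differences of its brightest probe set passed (adjusted p = 0.0679 for stomach, 0.864 for Barx1 intestine and 0.0886 between them, by limma); the difference between Barx1 intestine and intestine was -0.036, or 0.028 without intestine replicate 2. Of its 6 probe sets, 1 with nearly the same mean level was lower in Barx1 intestine than in intestine (-0.85, adjusted p = 0.0336 by limma over all probe sets), and the other 5 gave -0.30 to -0.04, none of which passed. The same probe set was lower in Barx1 intestine than in stomach (-1.10, adjusted p = 0.0160 by limma over all probe sets); it was singled out after its values were seen. With the mean of all 6 probe sets Fmod was called lower in Barx1 intestine than in stomach (-0.43, adjusted p = 0.0417 by limma).

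Prelp read 5.004 and 4.95 on the stomach arrays, 5.38 and 5.14 on the intestine arrays, and 4.71 and 4.72 on those of Barx1 intestine. The 3 groups did not overlap, and the Barx1 intestine arrays were at the lower quartile. Prelp was lower in Barx1 intestine than in intestine by a log2 difference of -0.54 (SE 0.09, adjusted p = 0.0413 by limma). The second Prelp probe set gave -0.01 (adjusted p = 0.957 by limma over all probe sets). The call was lost for the mean of both probe sets (adjusted p = 0.0683) and in 5 of the 6 fits without 1 array, all but the one without intestine replicate 2. Stomach and intestine differed by -0.28 (adjusted p = 0.0853 by limma), which passed when intestine replicate 2 was left out (-0.40, adjusted p = 0.0377). Prelp lies beside Fmod on chromosome 1, with the opticin gene Optc on its other side.

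**Figure D3:**
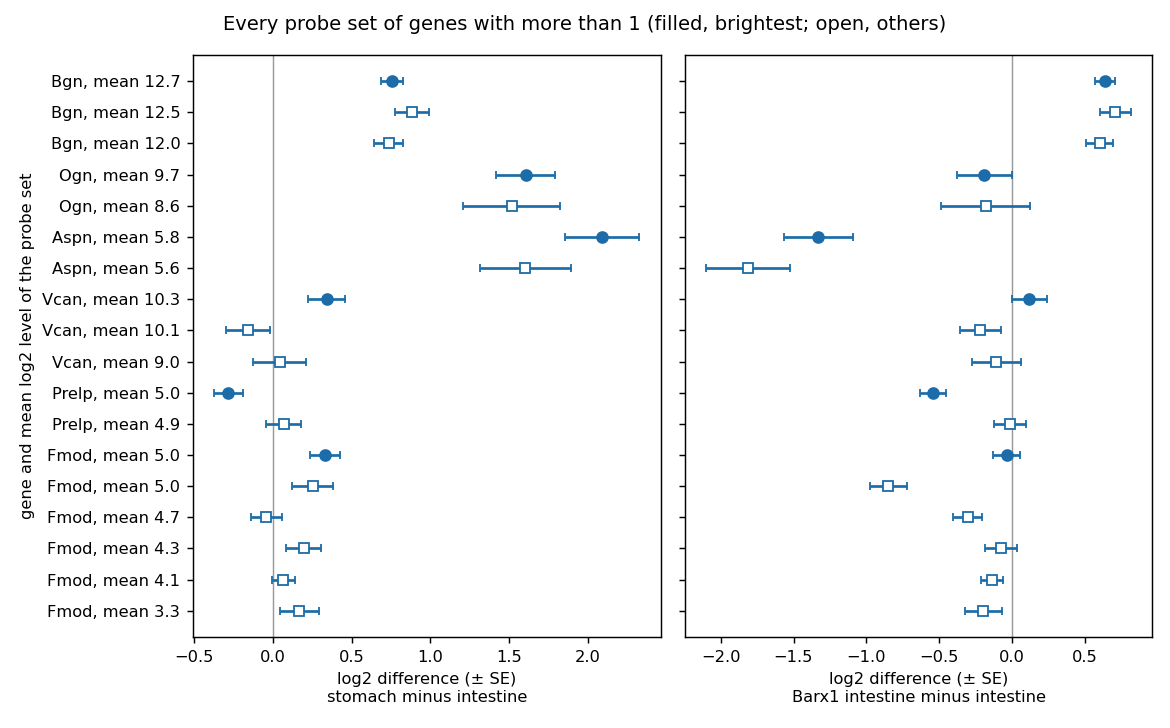
Log2 difference with SE (horizontal axes) of every probe set of the 6 genes that have more than 1, for stomach minus intestine (left) and Barx1 intestine minus intestine (right); filled circles are the brightest probe set of each gene and open squares the others. The probe sets of Bgn, Ogn and Aspn share their signs, whereas those of Vcan do not in either panel and those of Prelp and Fmod do not in the left panel, and 1 Fmod probe set stands apart at -0.85 in the right panel.

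Counted over the 7 genes that were not chosen on their values, 2 were called between stomach and intestine by limma, where 16.9% of all genes were called. Both were higher in stomach (Ogn and Bgn) and 0 were lower, where 8.86% of all genes were higher and 8.09% lower. At an unadjusted p under 0.05 by limma the counts were 4 and 1. The shares of all genes called are at an adjusted p under 0.05. They are not the background of the unadjusted counts, for which no share is given. The arrays of stomach and intestine did not overlap for any of the 7, as for 64.1% of all genes. The median difference was 0.33, beside 0.019 over all genes. Between Barx1 intestine and intestine 2 of 7 were called, where 3.98% of all genes were. Bgn was higher and Prelp lower, where 1.86% and 2.12% of all genes were higher and lower. At an unadjusted p under 0.05 by limma the counts were 1 higher and 2 lower. The arrays did not overlap for 4 of 7, beside 52.4% of all genes, and the median was -0.19 beside 0.022. Between Barx1 intestine and stomach 1 of 7 was called, where 5.20% of all genes were. Ogn was lower and 0 were higher, where 2.64% and 2.56% of all genes were; at an unadjusted p under 0.05 the counts were 3 lower and 0 higher. The arrays did not overlap for 4 of 7, beside 58.0% of all genes, and the median was -0.26 beside -0.00080. The comparisons share arrays, and the genes were taken up with earlier results of these contrasts known, so nothing is read from these counts about the set.

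The median absolute difference between replicates of the 10 genes was 0.175 for stomach, 0.237 for intestine and 0.348 for Barx1 intestine, beside 0.0705, 0.0948 and 0.0926 over all genes. Over all genes, replicate 2 minus replicate 1 had an SD of 0.149 for stomach, 0.232 for intestine and 0.199 for Barx1 intestine. Of the 10 genes, 4 exceeded 2 such SD in Barx1 intestine, namely Mgp (0.78), Dcn (0.74), Lum (0.54) and Ogn (0.46), against 4.46% of all genes. In stomach Lum (1.21) and Dcn (0.66) did so, beside 4.84% of all genes, and in intestine Aspn did (0.68), beside 4.80%. Higher on replicate 2 were 9 of the 10 for Barx1 intestine, 7 for stomach and 5 for intestine, beside 51.4%, 53.0% and 46.8% of all genes.

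**Figure D4:**
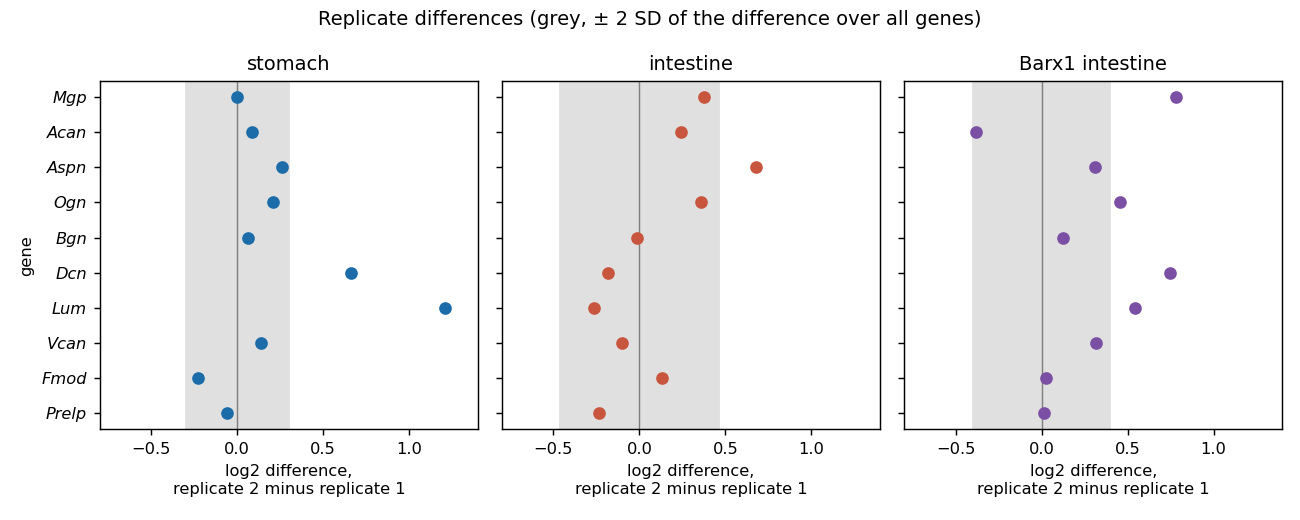
Log2 difference of replicate 2 minus replicate 1 (horizontal axis) for each of the 10 genes in the 3 groups, with 1 point per gene; the grey area spans 2 SD of the same difference over all genes on either side of 0. Lum and Dcn lie outside it in stomach and, with Mgp and Ogn, in Barx1 intestine.

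Markers of other cell types also differed among these arrays. The mean log2 level of 15 leukocyte markers was 8.46 and 8.14 on the stomach arrays, 8.93 and 9.89 on the intestine arrays, and 7.10 and 7.97 on those of Barx1 intestine. This mean was higher on Barx1 intestine replicate 2 than on replicate 1. So were those of the mesenchyme markers (9.94 on replicate 1, 10.18 on replicate 2) and of the smooth muscle, endothelium, and glia and neuron markers. The means of the epithelium and mesothelium markers were lower on replicate 2. Over all genes 8.09% were called lower in stomach and 2.12% in Barx1 intestine than in intestine. These shares are the background of the called lower markers that follow. They do not apply to counts at an unadjusted p, for which no share of all genes is given. Of the leukocyte markers 0 of 15 were lower in stomach by limma (9 at an unadjusted p under 0.05) and 6 of 15 in Barx1 intestine, and all 15 lay above the lower quartile on every array. Their summed linear level was 5778 to 7353, 10038 to 19019 and 3318 to 6599 in the 3 groups. The 15 epithelium markers averaged 6.83 and 7.55, 8.95 and 7.87, and 7.93 and 7.24, with summed linear levels of 4976 to 8345, 11616 to 25367 and 7669 to 12096; 2 of 15 were lower in stomach than in intestine and 1 of 15 was lower in Barx1 intestine. The 10 endothelium markers summed to 651 to 657, 1087 to 1121 and 791 to 897, with 4 to 6 of the 10 below the lower quartile on each array, and with 4 called lower in stomach and 2 in Barx1 intestine than in intestine. The 8 measured glia and neuron markers summed to 1345 to 1365, 1928 to 2204 and 933 to 1002. In each of these comparisons 3 were lower, Sox10, Erbb3 and Ednrb. The means of 3 others were higher in stomach than in intestine, Tubb3 (0.69), Elavl4 (0.36) and Ret (0.06), and none of these passed. The 5 measured mesothelium markers summed to 431 to 621, 696 to 1437 and 556 to 807, a sum in which Krt19 is the largest term on every array; Krt19 is also among the epithelium markers. In stomach 1 of the 5 was higher than in intestine, Wt1 (1.33, adjusted p = 0.0213 by limma; named after its value was seen), and 1 was lower, while in Barx1 intestine 0 passed, with 1 at an unadjusted p under 0.05. The 6 smooth muscle markers summed to 64705 to 66228, 63291 to 64298 and 61424 to 62261, a sum that the brightest genes carry. Their mean log2 level was 12.63 to 12.71, 12.47 to 12.57 and 12.27 to 12.33. By limma 1 of the 6 was higher in stomach than in intestine (8.86% of all genes). Between Barx1 intestine and intestine 0 were called, with 2 lower at an unadjusted p under 0.05. Against stomach 1 was lower in Barx1 intestine (2.64% of all genes). The part of these cells in the values of the matrix genes was not tested.

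Other genes of proteoglycan biology were read from 10 lists, and the 25 genes named by rule are those past the threshold with the smallest adjusted p, up to 4 per list. The called counts of each list stand beside the shares of all genes called higher and lower. These were 8.86% and 8.09% for stomach against intestine, and 1.86% and 2.12% for Barx1 intestine against intestine. For Barx1 intestine against stomach they were 2.56% and 2.64%. They do not apply to counts at an unadjusted p, for which no share of all genes is given. Among further matrix and pericellular proteoglycans 3 of 12 were higher in stomach than in intestine (Esm1, Cspg4 and Spock3) and 0 lower, or 1 lower at an unadjusted p under 0.05; Spock3 lay below the lower quartile on all arrays. Esm1, a secreted dermatan sulfate proteoglycan, read 8.20 and 8.35 on the stomach arrays, 5.54 and 5.72 on the intestine arrays, and 7.61 and 7.67 on those of Barx1 intestine. It was higher than intestine by 2.65 in stomach (adjusted p = 0.000418 by limma) and by 2.01 in Barx1 intestine (adjusted p = 0.00176 by limma), and both calls held with each array left out. It was lower in Barx1 intestine than in stomach (-0.64, adjusted p = 0.0267 by limma). Cspg4, the chondroitin sulfate proteoglycan NG2 of pericytes and mural cells, read 8.58 and 8.76, 7.61 and 7.56, and 7.10 and 7.41 in the same order of groups. It was higher in stomach than in intestine by 1.09 (adjusted p = 0.00628 by limma), and in Barx1 intestine it differed from intestine by -0.33 (adjusted p = 0.179 by limma) and was lower than in stomach (-1.42, adjusted p = 0.0120 by limma).

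Of 9 measured genes of the linker and of chondroitin or dermatan chain synthesis, 1 was higher in stomach, Csgalnact1, which starts chondroitin chains. It read 6.48 and 6.54 on the stomach arrays, 5.70 and 5.51 on the intestine arrays, and 5.45 and 5.74 on those of Barx1 intestine, with differences from intestine of 0.91 (adjusted p = 0.00904 by limma) and -0.01 (adjusted p = 0.970 by limma). It was lower in Barx1 intestine than in stomach (-0.92, adjusted p = 0.0215 by limma). Of 13 sulfation genes 1 was higher in stomach, the keratan sulfate sulfotransferase gene Chst1 (1.06, adjusted p = 0.00360 by limma), and 3 were lower, Chst2 (-0.76), Chst7 (-0.55) and Chst15 (-0.60). In Barx1 intestine against intestine, 0 of the 9 and 0 of the 13 passed, with 0 and 4 at an unadjusted p under 0.05 by limma. Against stomach Chst1 was lower (-0.70) and Chst7 higher (0.39).

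Hyaluronan is the chain that Acan and Vcan products bind, and syndecans and glypicans carry heparan sulfate at the cell surface. Of 9 measured hyaluronan genes 3 were higher in stomach (Hmmr 0.57, the synthase genes Has2 1.27 and Has1 0.33) and the receptor gene Cd44 was lower (-0.32). Has2 read 10.58 and 10.56 on the stomach arrays, 9.72 and 8.89 on the intestine arrays, and 10.51 and 10.59 on those of Barx1 intestine. Its difference of 1.25 in Barx1 intestine did not pass (adjusted p = 0.0608 by limma), and Hmmr was the 1 called higher there (0.44). The other probe sets of Hmmr gave 0.45, 0.38 and 0.38 for Barx1 intestine minus intestine, and none of these passed. Among 9 measured heparan sulfate proteoglycans of the cell surface 5 were higher in stomach, where 8.86% of all genes were, and 0 lower (1 at an unadjusted p under 0.05), Sdc1 (0.42), Sdc2 (0.42), Sdc4 (0.47), Gpc3 (0.46) and, outside the naming rule, Gpc4 (0.33). The other 2 probe sets of Sdc2 gave -0.10 and 0.49. In Barx1 intestine against intestine 0 of the 9 passed, with 4 at an unadjusted p under 0.05 by limma. Against stomach Sdc4 (-0.85) and Gpc1 (-0.47, outside the rule) were lower.

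**Figure D5:**
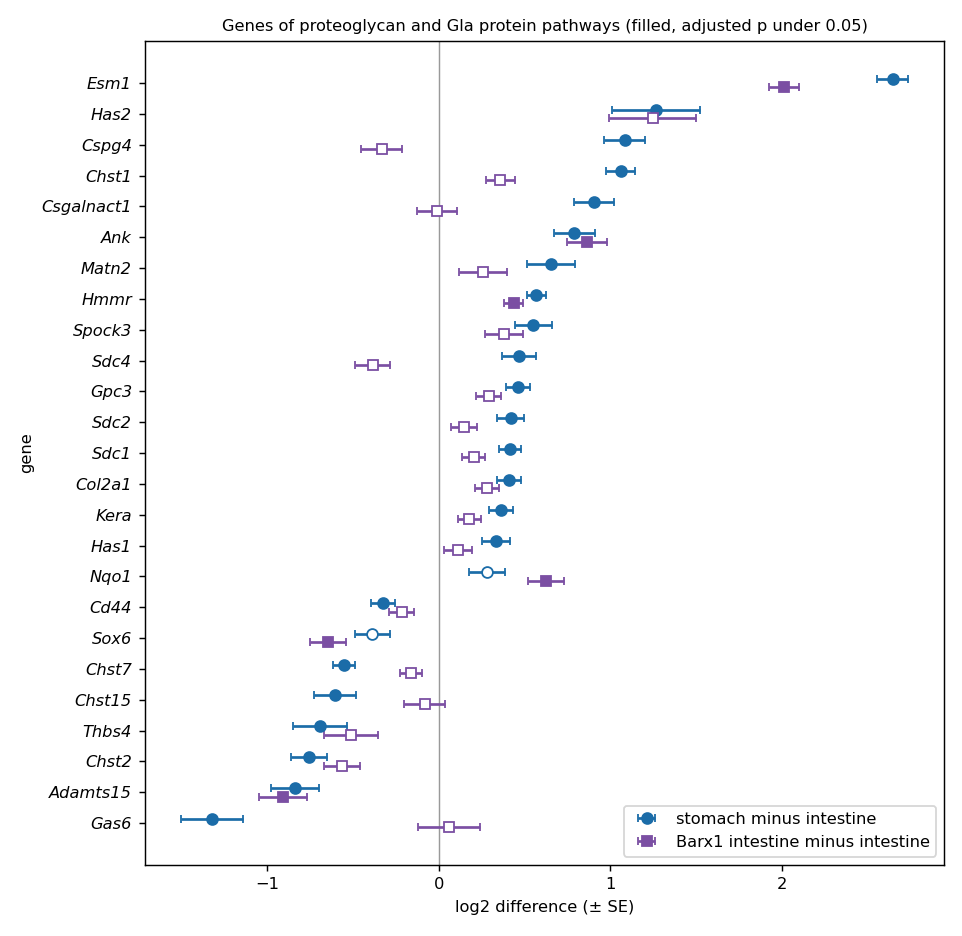
Log2 differences from intestine with SE (horizontal axis) for the 25 named genes of the related pathways, with circles for stomach and squares for Barx1 intestine; filled symbols have an adjusted p under 0.05 by limma. Esm1 (2.65 and 2.01), Hmmr, Ank and Adamts15 are filled for both, and Gas6 (-1.32) lies far to the left for stomach alone.

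Genes tied to Mgp and to turnover were also read. Of 6 measured genes of the vitamin K cycle and of Gla proteins, Gas6, the Gla-domain ligand of the TAM receptors, was lower in stomach. It read 9.43 and 9.35 on the stomach arrays, 10.98 and 10.44 on the intestine arrays, and 10.68 and 10.87 on those of Barx1 intestine, a difference of -1.32 for stomach (adjusted p = 0.0104 by limma) and 0.06 for Barx1 intestine (adjusted p = 0.878 by limma). Nqo1, a quinone reductase, was higher in Barx1 intestine (0.63, adjusted p = 0.0423 by limma), a call that was lost in every fit without 1 array. Of 8 measured mineralisation genes, Ank, a pyrophosphate transporter gene, was higher in stomach (0.79, adjusted p = 0.0127 by limma) and in Barx1 intestine (0.87, adjusted p = 0.0271 by limma). Of 5 proteoglycan-cleaving ADAMTS genes, Adamts15 was lower in both (-0.84 and -0.90), from levels below the lower quartile on all arrays but intestine replicate 2.

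The cartilage and tendon list, with 18 measured genes, had Col2a1 (0.41) and Matn2 (0.65) higher and Thbs4 (-0.69) lower in stomach. The SOX-family genes Sox6 (-0.65) and, outside the rule, Sox5 (-0.37) were lower in Barx1 intestine than in intestine. Sox5 lay below the lower quartile on both Barx1 intestine arrays (4.43 and 4.485) and just above it on the intestine arrays (4.84 and 4.82). The other Sox6 probe set, with a mean level of 4.20 below the lower quartile, gave -0.17, which did not pass. Of 5 measured further small leucine-rich proteoglycans Kera alone passed. The medians for stomach minus intestine were 0.31 for the further small proteoglycans, 0.078 for the matrix and pericellular, 0.34 for the cell surface, 0.13 for the hyaluronan, -0.003 for the chain synthesis and 0.11 for the sulfation genes. They were 0.11 for the ADAMTS, 0.037 for the vitamin K, 0.10 for the mineralisation and 0.059 for the cartilage genes, beside 0.019 over all genes. Once arrays were centred on their medians, the median of chain synthesis was 0.019, beside 0.041 over all genes. With each array left out in turn, 4 of the 23 calls among the named genes for stomach against intestine held throughout (Hmmr, Esm1, Chst1 and Chst2). So did 1 of 6 for Barx1 intestine against intestine (Esm1) and 0 of 7 against stomach.

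Genes with the nearest values to Acan, Aspn and Mgp were found by the Euclidean distance between pairs of differences from intestine, over the 3 group means of 6 arrays. Members and symbols of predicted genes were passed over. Acan lay below the lower quartile in both intestine groups and Aspn in Barx1 intestine, as did Epha3 and Vegfd in both intestine groups. Medag lay at the lower quartile in Barx1 intestine (mean 4.74). Distances and order that rest on these levels are therefore approximate. Nearest to Acan were Medag (stomach 3.20, Barx1 intestine -0.21, distance 0.26), Enpep (2.61 and 0.26), Epha3 (3.19 and 0.85), Vegfd (2.52 and 0.44) and Fibin (2.21 and 0.30). Nearest to Aspn were the matricellular gene Sparcl1 (2.11 and -0.84, distance 0.49), Pde1a (2.11 and -0.55), the collagen gene Col1a2 (1.98 and -0.48), Thbs2 (1.09 and -1.60) and Pappa (1.31 and -0.55). For Mgp the nearest were farther away, Prrx1 (3.76 and 1.12, distance 1.06), Pitx1 (3.13 and 2.36), Fap (4.07 and 3.25), Nr2f1 (3.22 and 1.25) and Epha3 again (distance 1.62).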

How the data were processed

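The series holds 6 arrays with 22690 probe sets. What the authors deposited is on a log2 scale and was made with RMA, per the submitters' processing notes; RMA subtracts background, equalises the distributions of arrays and summarises each probe set, and its version is not given in the sources used here. The log2 scale was inferred from the range (2.48 to 14.7; array medians 6.93 to 6.98). The number of arrays limits the precision. Gene names came from the platform annotation; 20380 probe sets named 1 gene, 2310 named several genes or none and were left out, and identifiers of 20351 matched the RefSeq gene list.

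Each of 12393 genes was read from its probe set with the highest mean. The 6 arrays were fitted together, 1 mean per group, by lmFit and eBayes of limma 3.58.1 in R 4.3.3; residual and prior degrees of freedom were 3 and 2.58. Adjustment was by Benjamini-Hochberg over all genes within each comparison, with a threshold of 0.05; intervals are at 95%. The fit was tested on simulated data. An exact permutation test of 2 arrays against 2 cannot give a p below 0.333 and was not used. The members and lists were chosen with earlier results of these data known. Named from each list were up to 4 genes past the threshold in any comparison with the smallest adjusted p, and for Acan, Aspn and Mgp the 5 genes with the nearest differences. In that search the members were passed over, as were symbols of predicted genes (Gm and digits, Rik, LOC or a leading digit). Alternatives covered filters, scaling, probe sets, the variance trend, the samples fitted, the replicate number as a block, thresholds and each array left out.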

Additional observations from a re-analysis of the deposited data

How the results depend on the processing

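Called genes in all numbered 2100 for stomach minus intestine, 493 for Barx1 intestine minus intestine and 644 for Barx1 intestine minus stomach. With an adjusted p under 0.01 they were 512 (279 higher, 233 lower), 40 (18 and 22) and 11 (5 and 6), and with an absolute log2 difference of at least 1 they were 276 (110 and 166), 129 (38 and 91) and 123 (47 and 76). A variance trend gave 1037 (506 and 531) and 1189 (622 and 567) in the comparisons with Barx1 intestine, and a fit of only the groups compared gave 50 (19 and 31) for Barx1 intestine minus intestine. For that comparison the calls of higher genes were 362 with dim genes left out and 354 with centred arrays. The replicate number as a block gave 267 (94 and 173) and 337 (141 and 196) in the comparisons with Barx1 intestine. With this block Prelp lost its call for Barx1 intestine minus intestine (adjusted p = 0.0604 by limma). The replicate differences correlated at -0.216 between stomach and intestine, -0.0615 between stomach and Barx1 intestine and 0.203 between intestine and Barx1 intestine, so the numbers were not taken to pair the arrays. With the stomach numbers crossed, an alternative chosen after seeing the data, 1879 genes were called for stomach minus intestine. Without 1 array the calls ran from 281 to 1692 (higher 143 to 901, lower 138 to 791), from 50 to 466 (19 to 137, 29 to 329) and from 0 to 727 (0 to 356, 0 to 371); the count of 0 was without stomach replicate 2, by limma, where 1906 genes had an unadjusted p under 0.05.

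Of the 7 members tested, 2, 2 and 1 were called. The count was 1 at a log2 difference of at least 1 for stomach minus intestine. For Barx1 intestine minus intestine it was 1 with the mean of all probe sets, 1 with the replicate block, and 0 with only the groups compared, with an adjusted p under 0.01 and with a log2 difference of at least 1. For Barx1 intestine minus stomach it was 2 with the mean of all probe sets and 0 with an adjusted p under 0.01. Without 1 array the counts ran from 1 to 3, from 0 to 1 and from 0 to 1. The signs that turned were all of differences without a call or without a test: for Barx1 intestine minus intestine Ogn (-0.42 to 0.040 without 1 array), Fmod (-0.10 to 0.028), Vcan (-0.036 to 0.28, and -0.067 with the mean of all probe sets) and Acan (-0.14 to 0.24, with -0.071 without intestine replicate 1), and Lum (-0.19 to 1.01) for Barx1 intestine minus stomach. Levels near the lower quartile limit what Acan, Aspn, Fmod and Prelp can show.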
